A study of Mus musculus with 12 samples.

Results

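The mitochondrially encoded respiratory chain genes are here 10 protein-coding genes of the mouse mitochondrial chromosome: mt-Nd1, mt-Nd2, mt-Nd4, mt-Nd5 and mt-Nd6 of complex I, mt-Cytb of complex III, mt-Co1, mt-Co2 and mt-Co3 of complex IV, and mt-Atp6 of complex V. They are 10 of the 22520 Ensembl gene IDs in the count tables and were found there by identifier, with no measured value in the rule, and 7 of the 10 had at least 1 read. The RefSeq annotation lists 13 protein-coding genes on this chromosome. The other 3 were not analysed here.

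The data are ribosome profiling libraries, which count the mRNA fragments that ribosomes shield from nuclease, from a mouse B cell lymphoma line with wild-type RPL12 (WT) or with serine 38 of that protein of the large ribosomal subunit changed to alanine (S38A) or aspartate (S38D). The 12 libraries form 6 groups of 2: S38D mitotic, S38D asynchronous, S38A mitotic, S38A asynchronous, WT mitotic and WT asynchronous. Every group shares one origin. The line 19PP arose in a Rag2-/-γC-/- mouse that received Cγ1-Cre; Myc/P110*flSTOP bone marrow, and the labels' growth protocol describes a subline (19DN) sorted for loss of the GFP and hCD2 reporters. Mitotic cells were held in nocodazole at 100 ng/mL for 8 hr and washed free of it for 10 min, so the drug and the mitotic state cannot be told apart. Cells were harvested in cycloheximide at 100 µg/ml. The labels give size markers of 27 and 30 nt for every library, and their bearing on footprints of these genes was not tested. The labels do not say whether replicates were separate cultures or how many clones stand behind each genotype, so a p-value here weighs a difference against the scatter of these libraries alone, part of which may be technical.

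The libraries held 258354 to 505500 reads in coding sequence, of which 932 to 3771 fell in the 10 genes. The substitution in RPL12 cannot be read from counts per gene, and the cell type named by the labels was not checked against markers because no table used here names the other Ensembl IDs. Replicate correlations over genes were lowest in WT asynchronous cells (0.932) and highest in S38A mitotic cells (0.960; log2 scale, 3944 genes). The 2 WT asynchronous libraries did stand apart in the mitochondrial genes. Comparisons that include this group are given with both libraries and with each left out in turn.

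The respiratory chain passes electrons from NADH and succinate to oxygen and uses the energy to move protons across the inner mitochondrial membrane, and ATP synthase turns the proton gradient into ATP. Most subunits of these complexes come from nuclear genes and are made by cytosolic ribosomes, while a few core subunits come from the mitochondrial chromosome and are made inside the organelle by mitochondrial ribosomes. Cycloheximide blocks cytosolic ribosomes and does not block mitochondrial ones. RPL12 belongs to the cytosolic ribosome. A footprint count combines the amount of an mRNA and how densely ribosomes sit on it, and in these bulk libraries fewer cells with a given level and less mRNA per cell cannot be told apart. Matched RNA sequencing was not analysed here.

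In coordinates of GRCm38.p6, the 7 genes with reads lie on the mitochondrial chromosome (MT) at 2751 to 3707 (mt-Nd1), 3914 to 4951 (mt-Nd2), 5328 to 6872 (mt-Co1), 10167 to 11544 (mt-Nd4), 11742 to 13565 (mt-Nd5), 13552 to 14070 (mt-Nd6) and 14145 to 15288 (mt-Cytb). All of them are coding genes without introns. mt-Nd6 is read from the opposite strand to the rest and overlaps the end of mt-Nd5. The sources used here do not say whether strand was used in counting, and reads of mt-Nd6 and reads antisense to it cannot be told apart.

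The remaining 3 genes had 0 reads in each of the 12 libraries. They were mt-Co2 at 7013 to 7696 and mt-Co3 at 8607 to 9390, which encode core subunits of cytochrome c oxidase, and mt-Atp6 at 7927 to 8607, which encodes a subunit of the proton channel of ATP synthase. The 3 genes lie close together: they span 2378 bases from 7013 to 9390, and none of the 7 genes with reads lies between them. Another protein-coding gene, which was not analysed here, lies between mt-Co2 and mt-Atp6. With a total of 4345506 coding reads over the libraries, a count of 0 allows up to 3 reads per library, which is 5.93 to 11.6 per 1000000 coding reads, and this limit covers counting error only. In the same complex mt-Co1 was never below 1314 reads per 1000000 after scaling. Of all 22520 IDs, 10840 also had 0 reads in every library. Alignments to more than 1 place, which HTSeq leaves out of gene counts, were 62.3% to 73.0% of the sum of such alignments and uniquely aligned reads, and their part in the absence of reads for these 3 genes was not tested.

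The 7 genes with reads were among the more heavily read of the 6692 genes that passed the filter on low counts, and all 7 passed it. By mean CPM (reads per 1000000 of a library total scaled with edgeR's TMM factors), mt-Co1 ranked 18, mt-Cytb 39, mt-Nd5 90, mt-Nd2 284, mt-Nd1 295, mt-Nd6 559 and mt-Nd4 815. Only values per kilobase of gene compare genes of unequal length. On that scale the medians over 12 libraries were 1431 for mt-Co1, the catalytic subunit of cytochrome c oxidase, and 1396 for mt-Cytb, the cytochrome b of complex III. These genes exchanged the first place: mt-Co1 was highest in 5 libraries and mt-Cytb in 7. The other medians per kilobase were 668 for mt-Nd6, 567 for mt-Nd5, 501 for mt-Nd2, 465 for mt-Nd1 and 172 for mt-Nd4, all membrane subunits of complex I. mt-Nd4 was last in 12 of 12 libraries. These values divide uniquely aligned reads by the whole length of a gene. How much of each gene such reads can cover was not tested. The order among mt-Nd6, mt-Nd5, mt-Nd2 and mt-Nd1 changed between libraries, and mt-Nd6 held the third place in 6 of them.

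**Figure D1:**
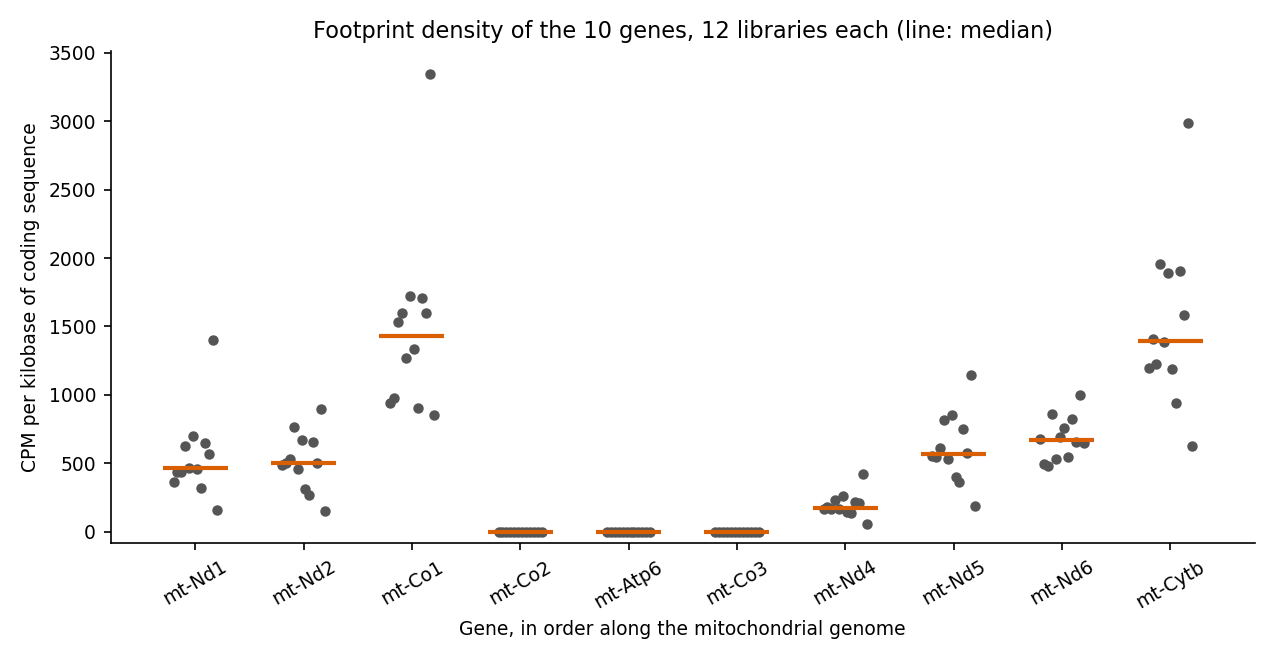
CPM per kilobase of coding sequence for the 10 genes in their order along the mitochondrial genome; each point is 1 of 12 libraries and each line a median. mt-Co2, mt-Atp6 and mt-Co3 are at 0, mt-Co1 (median 1431) and mt-Cytb (median 1396) overlap at the top, and mt-Nd4 (median 172) is the lowest of the 7 genes with reads.

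The 10 genes together took 0.504% and 0.532% of coding reads in S38D mitotic cells and 0.610% and 0.810% in S38D asynchronous cells. The shares were 0.577% and 0.827% in S38A mitotic cells, and 0.531% and 0.401% in S38A asynchronous cells. They were 0.816% and 0.690% in WT mitotic cells, and 1.39% and 0.308% in WT asynchronous cells. The 2 WT asynchronous libraries were thus the highest and the lowest of all 12 (median 0.593%), with the other 5 groups between them. In WT asynchronous replicate 1 the reads in no annotated feature were 23.0% of uniquely aligned reads, and in replicate 2 they were 19.2%, both within the range of all libraries (18.0% to 34.6%). Alignments to more than 1 place were 68.3% and 66.3% in the same libraries. Their part in the difference was not tested.

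**Figure D2:**
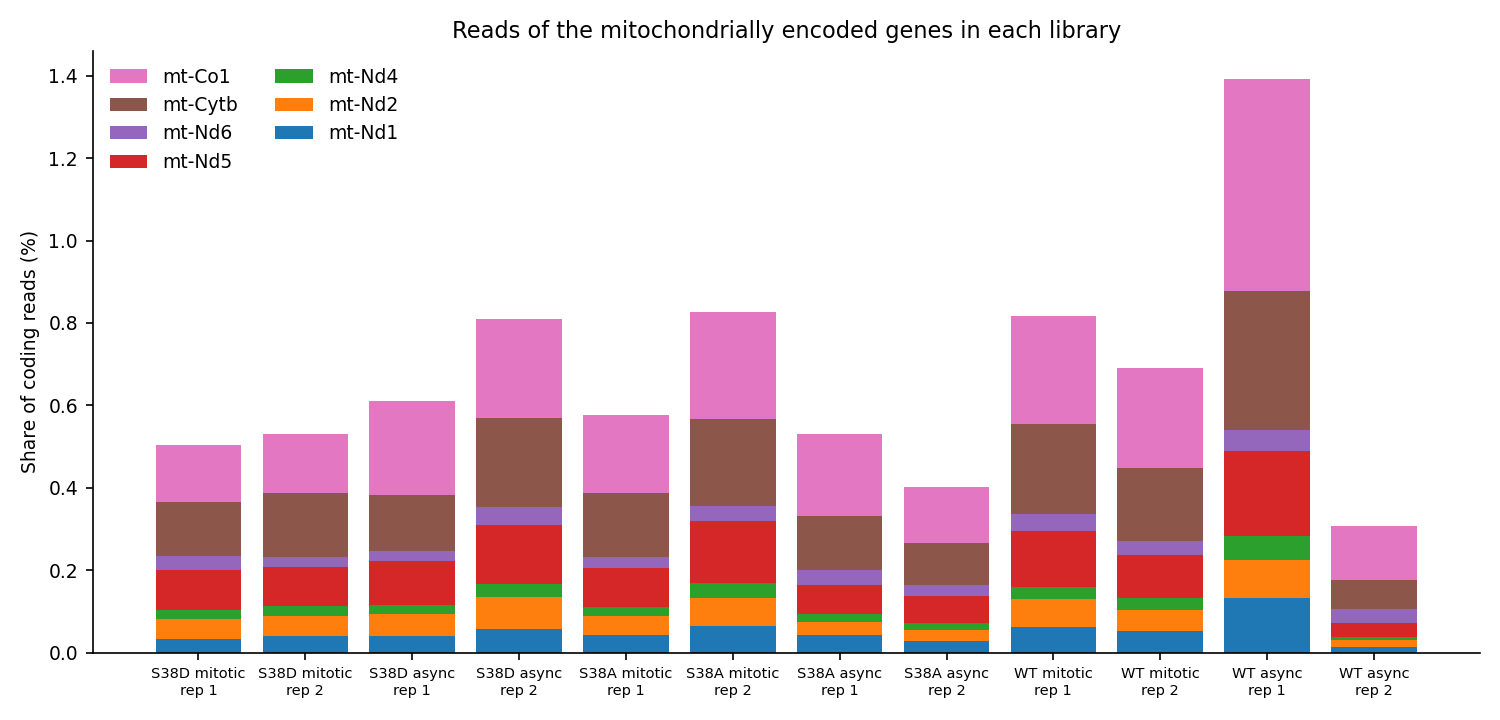
Percent of coding reads that fell in the mitochondrially encoded genes; each bar is 1 library, ordered by group, and its segments are the 7 genes with reads. WT asynchronous replicates 1 and 2 (1.39% and 0.308%) are the highest and lowest of the 12 libraries.

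The gap between the WT asynchronous libraries was shared by 6 of the 7 genes. Replicate 1 exceeded replicate 2 by 3.09 (log2) for mt-Nd1, 2.90 for mt-Nd4, 2.60 for mt-Nd5, 2.51 for mt-Nd2, 2.24 for mt-Cytb and 1.97 for mt-Co1. The same difference was 0.63 for mt-Nd6, which lay inside the range of -0.68 to 0.80 that holds the central 95% of genes in this pair of libraries, whereas the other 6 lay outside it. In S38A mitotic cells all 7 genes were lower in replicate 1 than in replicate 2, by -0.67 to -0.37 (log2), and 4 lay outside the central range of that pair. In S38D asynchronous cells the differences were -0.82 to -0.06, in S38A asynchronous cells 0.12 to 0.55, in WT mitotic cells 0.03 to 0.40 and in S38D mitotic cells -0.26 to 0.45. Apart from S38D mitotic cells the 7 genes thus had 1 sign within each pair of replicates, positive in some groups and negative in others. Their fitted variation between replicates was wide: edgeR's biological coefficient of variation was 0.114 (mt-Nd6) to 0.201 (mt-Nd1). All 7 lay above 0.0965, the 95th percentile of the 2475 genes that averaged at least 100 CPM. edgeR draws these coefficients toward the fit over all genes (common value 0.0868), so they understate the gaps seen in WT asynchronous cells.

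mt-Nd6 varied least and followed the others least. Over the 12 libraries its highest normalised value was 2.08 times its lowest, against 3.94 times for mt-Co1, 4.75 for mt-Cytb, 5.84 for mt-Nd2, 6.16 for mt-Nd5, 7.98 for mt-Nd4 and 8.79 for mt-Nd1. Pearson correlations of log2 values over the 12 libraries were 0.76 to 0.99 for the 15 pairs of genes without mt-Nd6 (median 0.94) and 0.41 to 0.65 for its 6 pairs. Without the WT asynchronous libraries the ranges over 10 libraries were 0.64 to 0.98 and 0.37 to 0.59. These values share libraries, depth and group structure, and are given as a description. Of all reads in the 10 genes, mt-Nd6 took 3.70% in WT asynchronous replicate 1 and 10.8% in replicate 2, with a median of 5.02% over all libraries. Among 4252 other genes averaging at least 50 CPM, the 5 whose log2 values were most like the mean of the 7 genes over the 12 libraries had correlations of 0.78 to 0.84, led by ENSMUSG00000030846.15 (r = 0.84) and ENSMUSG00000027331.15 (r = 0.80). Without the WT asynchronous libraries these were 0.34 and 0.45 for the leading pair, and 0.72, 0.58 and 0.50 for the other 3 in their order.

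**Figure D3:**
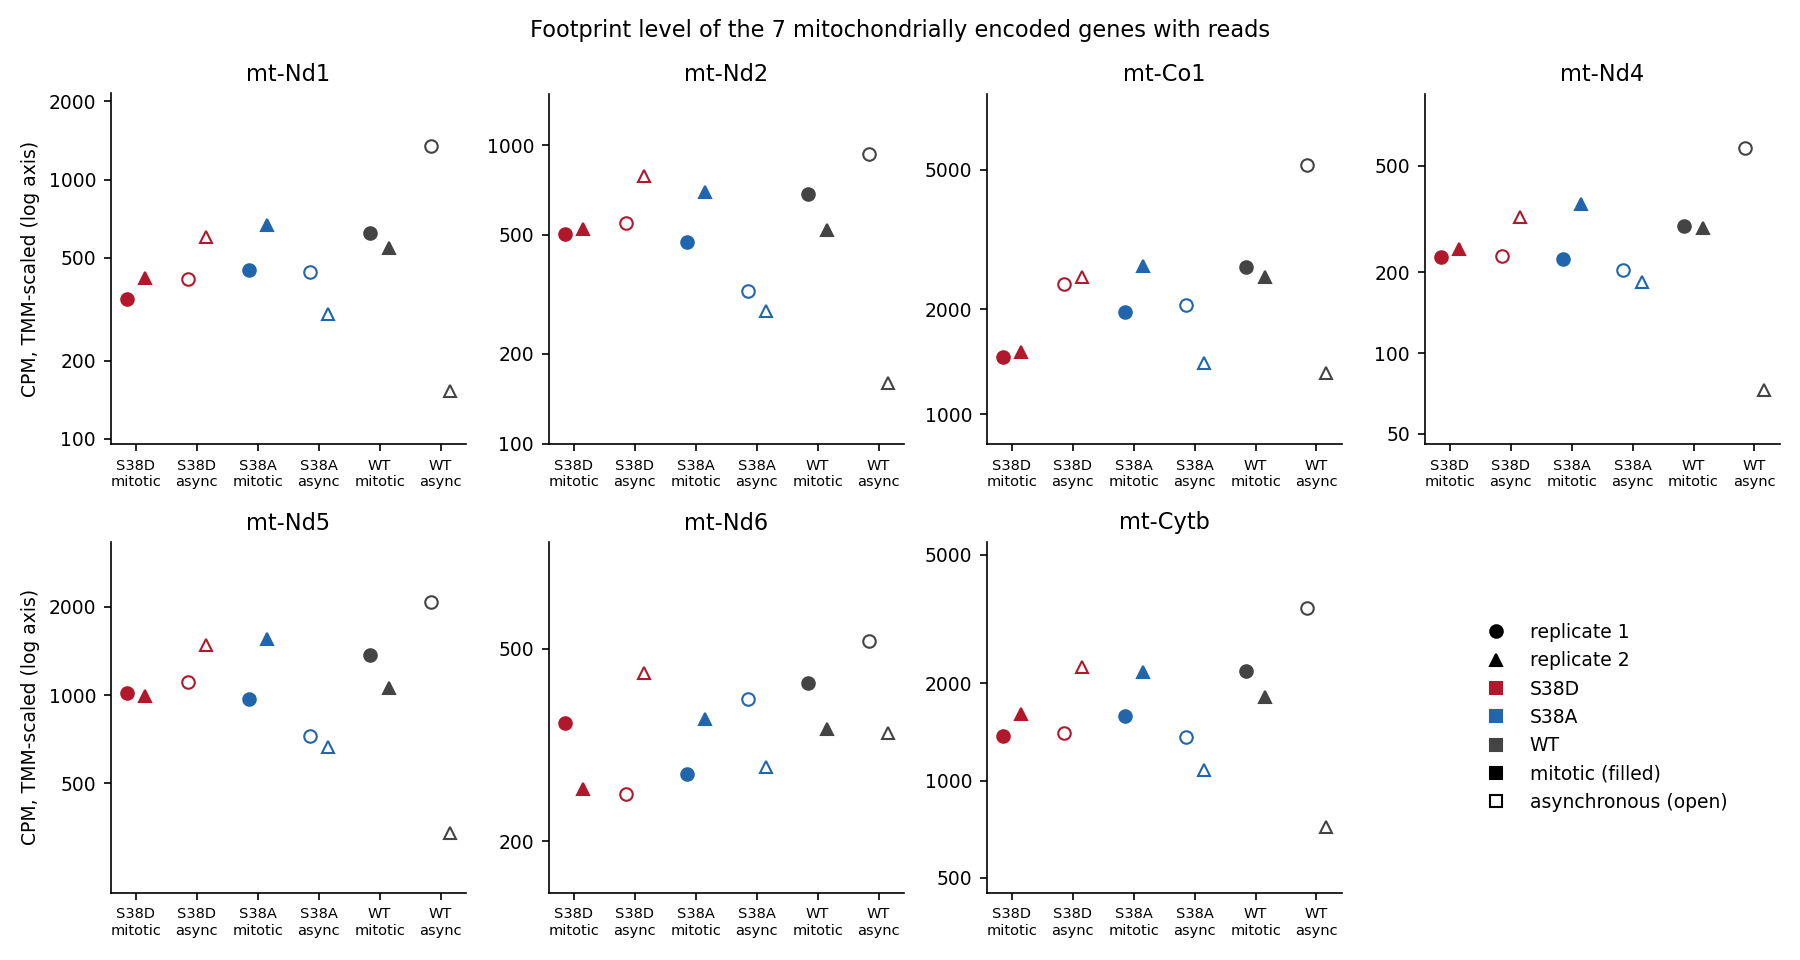
CPM (log axis) of each of the 7 genes in every library, by group; circles are replicate 1, triangles replicate 2, filled symbols mitotic cells and open symbols asynchronous cells. In WT asynchronous cells 6 genes are far apart between replicates, while mt-Nd6 is at 519.9 and 335.

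The first comparison asks whether footprints on these genes differ between mitotic and asynchronous cells. Averaged over the 3 genotypes, 0 of the 7 genes passed edgeR's quasi-likelihood test at an adjusted p under 0.05, while 38.9% of all genes tested did in either direction; 0 of the 7 had an unadjusted p under 0.05 and DESeq2 called 0. The log2 differences ran from -0.21 for mt-Co1 (approximate 95% interval -0.50 to 0.08) to 0.22 for mt-Nd2 (-0.12 to 0.56). Their median was 0.08, against -0.01 over all genes tested. With WT asynchronous replicate 1 left out the log2 differences ran from -0.08 for mt-Nd6 to 0.55 for mt-Nd2. With replicate 2 left out they ran from -0.36 for mt-Co1 to 0.02 for mt-Nd2, so the direction of most genes turned with the library left out. Each genotype is next described by itself.

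In S38A cells the mitotic libraries were higher for most of the genes. mt-Nd2, a proton-pumping membrane subunit of complex I, had 474 and 694 CPM in S38A mitotic cells, against 323 and 278 in S38A asynchronous cells. mt-Nd5, another proton-pumping subunit of complex I, had 971 and 1552 in S38A mitotic cells, against 725 and 666 in S38A asynchronous cells. For both genes each mitotic library lay above each asynchronous one. Overlap of groups was looked at for the 7 genes only, here and below, so no share over all genes stands beside it. mt-Nd2 was higher by 0.94 ± 0.26 (log2 ± SE, n = 2 each, edgeR adjusted p = 0.00560) and mt-Nd5 by 0.85 ± 0.25 (edgeR adjusted p = 0.0107). They were the 2 of 7 genes called higher, against 9.03% of all genes tested in that direction. Here and below, shares of all genes tested belong to the main fits of all 12 libraries, and none is given for the alternative settings. The median log2 difference of the 7 was 0.57, against -0.01 over all genes tested.

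The other genes of the chromosome had positive differences in S38A cells that did not pass, apart from mt-Nd6, whose difference was negative. mt-Cytb had 1583 and 2164 CPM in S38A mitotic cells, against 1364 and 1077 in S38A asynchronous cells, without overlap and with a log2 difference of 0.61 ± 0.23 (edgeR adjusted p = 0.0521). mt-Nd1, a subunit next to the ubiquinone site of complex I, had 448 and 668 in S38A mitotic cells, against 441 and 304 in S38A asynchronous cells. mt-Nd4, a further proton-pumping subunit, had 224 and 360.3 in S38A mitotic cells, against 203 and 184 in S38A asynchronous cells. Their log2 differences were 0.56 and 0.57 (edgeR adjusted p = 0.182 and 0.171). In neither gene did the groups overlap, though the lower mitotic library was close to the higher asynchronous one. mt-Co1 had 1961 and 2665 in S38A mitotic cells, against 2058 and 1401 in S38A asynchronous cells. mt-Nd6 had 276 and 358 in S38A mitotic cells, against 394 and 285 in S38A asynchronous cells, so for both genes the groups overlapped. The log2 differences were 0.41 for mt-Co1 and -0.12 for mt-Nd6 (edgeR adjusted p = 0.161 and 0.730). The count for S38A moved with the libraries and the test: 6 genes were higher when only the 2 groups were fitted or when WT asynchronous libraries were left out of the fit, 0 by DESeq2, and 0 without S38A asynchronous replicate 2 or without S38A mitotic replicate 2. Without S38A asynchronous replicate 1 it was 1.

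In S38D cells every one of the 7 log2 differences was negative, and 1 passed. mt-Co1 had 1458 and 1512 CPM in S38D mitotic cells, against 2364 and 2472 in S38D asynchronous cells. The groups did not overlap and both pairs of replicates were close. The log2 difference was -0.70 ± 0.21 (n = 2 each, edgeR adjusted p = 0.0101), the 1 gene of 7 called lower, against 10.9% of all genes tested. The median over the 7 was -0.37, against -0.03 over all genes tested. The mt-Co1 difference stayed between -0.74 and -0.65 whichever of the 4 S38D libraries was left out. Its adjusted p by edgeR was 0.0917 without S38D mitotic replicate 1 and 0.0568 without S38D mitotic replicate 2. DESeq2 called 0 of the 7 genes, and without S38D asynchronous replicate 1 edgeR called 3.

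The 2 genes called higher in S38A cells had negative differences in S38D cells. mt-Nd2 had 504 and 523 in S38D mitotic cells, against 549.9 and 791 in S38D asynchronous cells. mt-Nd5 had 1015 and 996 in S38D mitotic cells, against 1112 and 1486 in S38D asynchronous cells. Every S38D mitotic value of both genes lay below every S38D asynchronous one. The log2 differences were -0.38 for mt-Nd2 and -0.37 for mt-Nd5, and neither passed. mt-Cytb had 1369.8 and 1610.1 in S38D mitotic cells, against 1403 and 2237 in S38D asynchronous cells, where the groups overlapped. Among the other complex I genes the same held. mt-Nd1 had 347 and 417 in S38D mitotic cells, against 414 and 598 in S38D asynchronous cells. mt-Nd4 had 229 and 246 in S38D mitotic cells, against 229.8 and 323 in S38D asynchronous cells. mt-Nd6 had 351 and 256 in S38D mitotic cells, against 250.3 and 445 in S38D asynchronous cells. In these 3 genes 1 mitotic library or more lay above the lower asynchronous one.

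The difference between genotypes was tested as an interaction. The mitotic change of S38D minus that of S38A was -1.33 ± 0.36 for mt-Nd2 (log2 ± SE, edgeR adjusted p = 0.0838), -1.22 ± 0.35 for mt-Nd5 (edgeR adjusted p = 0.106) and -1.12 for mt-Co1 (edgeR adjusted p = 0.0762). It was -0.96 for mt-Nd1, -0.90 for mt-Cytb, -0.79 for mt-Nd4 and -0.08 for mt-Nd6. All 7 differences had the same sign, 5 had an unadjusted p under 0.05 and 0 passed the adjusted threshold, against 0.239% of all genes tested; DESeq2 called 0. With both WT asynchronous libraries left out of the fit, a setting chosen after the data were seen, 5 genes passed. With only the 4 S38A and S38D groups fitted, 4 did. The replicate block added 1 call (mt-Co1, edgeR adjusted p = 0.0435). The count also moved when 1 library was left out.

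**Figure D4:**
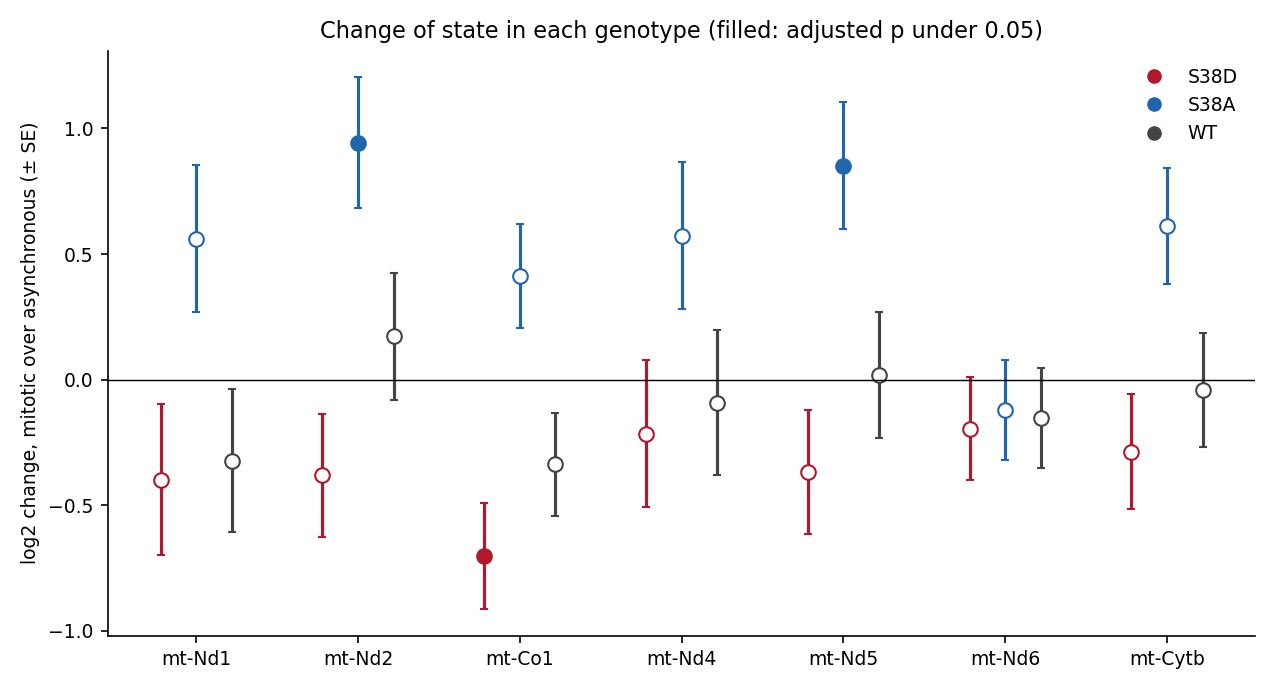
Log2 difference of mitotic from asynchronous cells for each of the 7 genes within S38D, S38A and WT cells; bars are ± SE of the 6-group edgeR fit (n = 2 libraries a group), and filled points have an adjusted p under 0.05. The S38D values are all below 0, and mt-Nd2 (0.94) and mt-Nd5 (0.85) are highest in S38A.

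In WT cells the same comparison cannot be read without choosing a replicate. mt-Co1 had 2643 and 2467 CPM in WT mitotic cells, against 5172 and 1314 in WT asynchronous cells. mt-Nd5 had 1368 and 1055 in WT mitotic cells, against 2084 and 338 in WT asynchronous cells. mt-Cytb had 2180.0 and 1811 in WT mitotic cells, against 3417 and 719.8 in WT asynchronous cells. In these genes of complexes IV, I and III both mitotic libraries fell inside a wide asynchronous gap. mt-Nd1 had 620.4 and 547 in WT mitotic cells, against 1341 and 153 in WT asynchronous cells. mt-Nd2 had 684 and 518 in WT mitotic cells, against 930.4 and 159 in WT asynchronous cells. mt-Nd4 had 298 and 293 in WT mitotic cells, against 582 and 73.0 in WT asynchronous cells. The gap was narrower for mt-Nd6, which had 426 and 342 in WT mitotic cells, against 519.9 and 335 in WT asynchronous cells. For all 7 genes both mitotic values lay between the asynchronous ones. By log2 difference (median -0.09, against 0.00 over all genes tested), 0 of the 7 genes passed edgeR's test, against 18.4% of all genes tested; 0 had an unadjusted p under 0.05 and DESeq2 called 0. With WT asynchronous replicate 1 left out 6 genes were called higher in mitotic cells, and with replicate 2 left out the same test called 6 lower. mt-Nd1 shows the span, with a log2 difference of 1.89 in the first case and -1.20 in the second. The mitotic change of S38A minus that of WT had 0 genes called, against 0.448% of all genes tested, and that of S38D minus that of WT had 0, against 0.0598%. Unadjusted, 5 genes of the S38A minus WT difference and 0 of the S38D minus WT difference were under 0.05, and DESeq2 called 0 in both. These differences turned with the WT asynchronous library left out. For mt-Nd1 without replicate 1, S38A minus WT was -1.34 (log2) and S38D minus WT was -2.27. Without replicate 2 the values of mt-Nd1 were 1.77 and 0.83.

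The next comparisons set genotypes against each other in asynchronous cells. S38D and S38A cells differ by the residue at position 38, and their comparison uses WT libraries only in the shared estimate of spread. mt-Nd2 had 549.9 and 791 in S38D asynchronous cells, against 323 and 278 in S38A asynchronous cells, and was higher by 1.15 ± 0.25 (log2 ± SE, n = 2 each, edgeR adjusted p = 0.00165). mt-Nd5 had 1112 and 1486 in S38D asynchronous cells, against 725 and 666 in S38A asynchronous cells, and was higher by 0.90 ± 0.25 (edgeR adjusted p = 0.0143). The groups did not overlap for either gene. These were the 2 of 7 genes called higher, against 3.71% of all genes tested in that direction. The median over the 7 was 0.50 (log2), against 0.00 over all genes tested. mt-Nd2 passed with any 1 of the 4 libraries left out (0.87 to 1.39, edgeR adjusted p at most 0.0297). mt-Nd5 kept its sign but did not pass without S38A asynchronous replicate 1 or 2 or S38D asynchronous replicate 2, at edgeR adjusted p of 0.0908, 0.0992 and 0.0666.

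mt-Co1 and mt-Cytb were also higher in every S38D asynchronous library than in every S38A one, without passing. mt-Co1 had 2364 and 2472 in S38D asynchronous cells, against 2058 and 1401 in S38A asynchronous cells (log2 difference 0.48, edgeR adjusted p = 0.145). mt-Cytb had 1403 and 2237 in S38D asynchronous cells, against 1364 and 1077 in S38A asynchronous cells (log2 difference 0.57, edgeR adjusted p = 0.112). With the WT asynchronous libraries left out of the fit both passed, at edgeR adjusted p of 0.00576 and 0.0036, so that 4 genes were higher. DESeq2 called 0. mt-Nd6 had 250.3 and 445 in S38D asynchronous cells, against 394 and 285 in S38A asynchronous cells, where the S38D values lay on both sides.

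Against WT asynchronous cells both substitutions gave a result that depended on 1 library. In S38A cells 5 of the 7 genes were called lower, against 3.47% of all genes tested: mt-Co1 by -0.89 ± 0.21 (log2 ± SE, edgeR adjusted p = 0.00182), mt-Nd1 by -0.95 ± 0.30 (edgeR adjusted p = 0.0285), and mt-Nd2, mt-Nd5 and mt-Cytb by -0.81, -0.77 and -0.74. The groups overlapped for each of them, with both S38A libraries between the WT ones. mt-Nd1 had 441 and 304 in S38A asynchronous cells, against 1341 and 153 in WT asynchronous cells. Without WT asynchronous replicate 1 the test called 5 genes higher in S38A (mt-Nd1 at 1.28, mt-Nd4 at 1.39), and without replicate 2 it called 6 lower (mt-Nd1 at -1.85). DESeq2 called 0, as did the fit of the 2 groups alone. For mt-Nd1 the SE was 0.84 by DESeq2, against 0.30 by edgeR. The replicate block left 3, without S38A asynchronous replicate 1 it was 3 and without S38A asynchronous replicate 2 it was 0. In S38D cells 0 genes were called in either direction, against 3.33% of all genes tested; 1 had an unadjusted p under 0.05 and DESeq2 called 0. Without WT asynchronous replicate 1 the count was 6 higher, without replicate 2 it was 5 lower, and without S38D asynchronous replicate 2 it was 1. No direction is given for either substitution against WT in asynchronous cells.

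**Figure D5:**
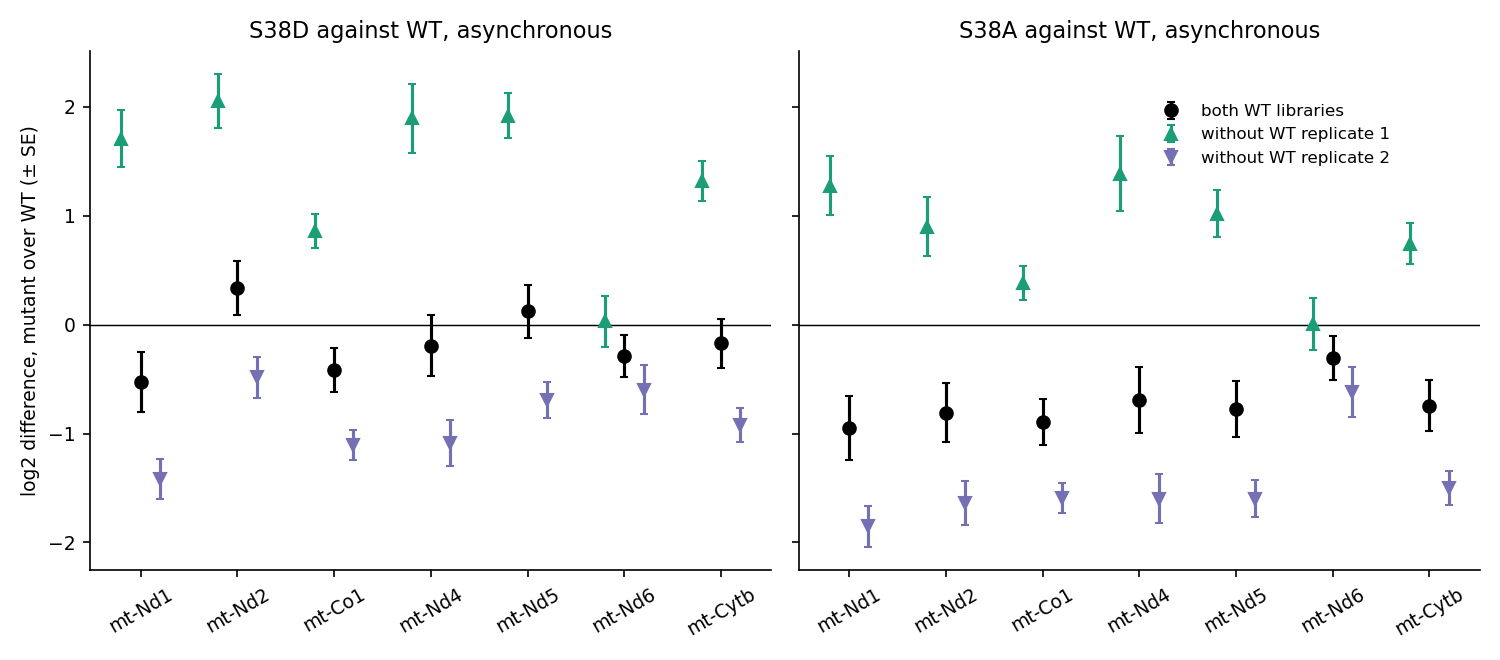
Log2 difference of S38D and of S38A from WT in asynchronous cells for each of the 7 genes, with both WT asynchronous libraries and with each left out; bars are ± SE of the edgeR fit. Without replicate 1 mt-Nd1 is at 1.71 in S38D and 1.28 in S38A, and without replicate 2 at -1.42 and -1.85, while mt-Nd6 stays nearer to 0.

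In mitotic cells the WT libraries were close to each other, and the comparisons do not use the WT asynchronous libraries except for the shared estimate of spread. mt-Co1 had 1458 and 1512 CPM in S38D mitotic cells, against 2643 and 2467 in WT mitotic cells. The groups did not overlap, and mt-Co1 was lower by -0.78 ± 0.21 (log2 ± SE, n = 2 each, edgeR adjusted p = 0.0312). It was the 1 gene of 7 called lower, against 1.12% of all genes tested, and the median over the 7 was -0.33, against -0.01 over all genes tested. The log2 difference was -0.78 with the WT asynchronous libraries left out of the fit (edgeR adjusted p = 1.37e-05) and -0.77 to -0.69 with any 1 of the 4 libraries left out, where 0 genes passed. The other 6 genes also had negative differences, among them mt-Cytb, with 1369.8 and 1610.1 in S38D mitotic cells, against 2180.0 and 1811 in WT mitotic cells. DESeq2 called 0.

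Against S38A the same gene stood out in mitotic cells. mt-Co1 had 1458 and 1512 in S38D mitotic cells, against 1961 and 2665 in S38A mitotic cells, without overlap. It was lower by -0.64 ± 0.21 (log2 ± SE, edgeR adjusted p = 0.0329), the 1 gene of 7 called lower, against 6.77% of all genes tested. DESeq2 called 0, and the call was also lost when DESeq2's size factors replaced TMM in edgeR and without S38A mitotic replicate 2, S38D mitotic replicate 1 or S38D mitotic replicate 2. S38A and WT were not distinguished in mitotic cells: 0 of the 7 genes passed, against 13.2% of all genes tested, 0 had an unadjusted p under 0.05, DESeq2 called 0, and the log2 differences were -0.27 to 0.06. All comparisons among the mitotic groups share libraries with one another.

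Averaged over both states, mt-Co1 was the 1 gene of 7 called lower in S38D against WT, at -0.57 ± 0.18 (log2 ± SE, edgeR adjusted p = 0.0479), against 2.62% of all genes tested called lower. It was also the 1 gene called lower in S38A against WT, at -0.49 ± 0.18 (edgeR adjusted p = 0.0468), against 7.89% called lower. Both calls ended with the WT asynchronous libraries left out, with the replicate block, and by DESeq2. Leaving out WT asynchronous replicate 1 gave 0 for both, leaving out replicate 2 gave 3 for S38D and 6 for S38A, and S38A mitotic replicate 2 left out gave 3 for S38A. With 1 library left out, the S38D call of mt-Co1 was kept without WT asynchronous replicate 2 (edgeR adjusted p = 9.56e-05) or S38D asynchronous replicate 2 (edgeR adjusted p = 0.0308), and lost without any other of the 8 libraries compared. Its S38A call was kept without WT asynchronous replicate 2 (edgeR adjusted p = 0.000135) or S38A mitotic replicate 2 (edgeR adjusted p = 0.00634), and lost without any other of its 8. For S38D against S38A 0 genes passed, against 17.9% of all genes tested; 1 had an unadjusted p under 0.05 and DESeq2 called 0. mt-Nd2, at 0.47 (log2), passed with the WT asynchronous libraries left out (edgeR adjusted p = 0.0229), and the count was also 1 without S38D mitotic replicate 2 or S38A mitotic replicate 2.

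The make-up of the reads within the 10 genes was also described by library. mt-Co1 took 27.6% and 27.2% of these reads in S38D mitotic cells, against 37.4% and 29.6% in S38D asynchronous cells. It took 33.0% and 31.5% in S38A mitotic cells, against 37.4% and 33.4% in S38A asynchronous cells. It took 32.2% and 35.1% in WT mitotic cells, against 36.8% and 42.5% in WT asynchronous cells. In each genotype both mitotic shares of mt-Co1 lay below both asynchronous ones, also in WT, where the total differed most between replicates. For mt-Nd5 both mitotic shares lay above both asynchronous ones in each genotype. They were 19.2% and 17.9% in S38D mitotic cells, against 17.6% and 17.8% in S38D asynchronous cells. In S38A cells they were 16.4% and 18.3%, against 13.2% and 15.9%, and in WT cells 16.6% and 15.0%, against 14.8% and 10.9%. The shares were looked at after the values were seen and were not tested, and a share falls when the other genes rise. Over the 16 comparisons mt-Co1 was called in 6, mt-Nd2 and mt-Nd5 in 3 each, mt-Nd1 and mt-Cytb in 1 each, and mt-Nd4 and mt-Nd6 in 0, with lowest edgeR adjusted p of 0.164 for mt-Nd4 and 0.182 for mt-Nd6. In each of the 5 called genes 1 of these calls was S38A against WT in asynchronous cells, where the sign turned without WT asynchronous replicate 1, and 2 more calls of mt-Co1 were the averages against WT, which ended with the WT asynchronous libraries left out. Apart from those, mt-Co1 was called in 3 comparisons, mt-Nd2 and mt-Nd5 in 2 each, and mt-Nd1 and mt-Cytb in 0. These comparisons share libraries and are not independent.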

How the data were processed

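Ribosome-protected fragments were counted per gene in 12 libraries. The authors deposited whole-number read counts for 22520 Ensembl IDs, not normalised, with 5 summary lines that were left out of library sizes. Per the submitters' processing notes, the build was mm10 and the tools named were HTSeq 0.9.1, STAR 2.5.3a, Bowtie2 2.3.2, DESeq2 1.18.1 and bcl2fastq 2.16.0.10; their roles, parameters and any use of strand are not given in the sources used here. Coordinates come from RefSeq's GRCm38.p6 table. Duplicate reads may or may not have been removed, and floors cover counting error only.

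Genes passing edgeR's expression filter (minimum count 10, 6692 genes) were fitted over 6 groups with TMM scaling and the quasi-likelihood test in edgeR 4.0.16 (limma 3.58.1, R 4.3.3), with Benjamini-Hochberg adjustment over all 6692 genes and a threshold of 0.05; the 2 WT asynchronous libraries enter that shared spread. CPM values are TMM-scaled. Each SE is the size of the log2 difference divided by the square root of edgeR's F statistic, and approximate 95% intervals are 1.96 SE each way. DESeq2's own SE was wider, as for mt-Nd2 in the mitotic change of S38A (0.71, against 0.26 by edgeR). DESeq2 1.42.0, other scalings, filters, a replicate block, the compared groups alone and each library left out were alternatives. The test was run on simulated data drawn gene by gene from edgeR's fitted spread. Such data hold no swing shared by several genes between replicates, so that check cannot speak to the WT asynchronous libraries. The genes named were all 10 members, plus the first 2 of the 5 IDs most correlated with them. No sign that replicate numbers pair samples was seen: over 15 pairs of groups, same-numbered deviations correlated at -0.23 to 0.09 (4259 genes). Counting error lowers such correlations, so pairing is not excluded. The 16 lists of nuclear genes and cell type markers were not applied, because the reference table held 0 of the Ensembl IDs. Members and lists were chosen with earlier results of these data known.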

Additional observations from a re-analysis of the deposited data

Results flagged for a closer look

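For 2 genes of complex I each S38A mitotic library lay above each S38A asynchronous one, while each S38D mitotic library lay below each S38D asynchronous one. The share of all genes with this pattern was not computed, so it cannot be called particular to these genes. The mitotic change of S38D minus that of S38A was -1.33 ± 0.36 for mt-Nd2 (log2 ± SE, n = 2 libraries a group, edgeR adjusted p = 0.0838) and -1.22 ± 0.35 for mt-Nd5 (edgeR adjusted p = 0.106), so the interaction did not pass in the fit of all 6 groups. With only the 4 S38D and S38A groups fitted, the edgeR adjusted p was 7.03e-04 for mt-Nd2 and 5.06e-04 for mt-Nd5. With the WT asynchronous libraries left out, a setting chosen after the data were seen, the edgeR adjusted p was 4.47e-04 and 1.97e-04. Both settings drop the pair of libraries in which these genes differed most between replicates, which narrows the fitted spread. The genes were also flagged on the same values, so these p-values add no evidence. DESeq2 called neither gene.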

How the results depend on the processing

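Counts below are of the 7 genes with reads that passed the test. The share of all genes called under each setting is not given, so a higher count may go with more calls over all genes. DESeq2 called 0 in every comparison, where edgeR had 2 for the mitotic change in S38A, 1 for that in S38D, 5 for S38A against WT and 2 for S38D against S38A in asynchronous cells, and 1 for S38D against WT and 1 for S38D against S38A in mitotic cells. With no filter the count was 1 for the averaged mitotic change and for that in WT, 6 for S38A and 4 for S38D, 4 for S38D against S38A in asynchronous cells, 2 for S38D against WT and 2 against S38A in mitotic cells, and 3 for S38A against WT, 2 for S38D against WT and 1 for S38D against S38A averaged over states. For the difference in mitotic change it was 4 (S38A minus WT) and 5 (S38D minus S38A). A mean CPM of at least 10 gave 0 in mitotic cells (S38D against WT) and 0 averaged over states for either mutant against WT. Scaling without the mitochondrial genes gave 0 for S38D against WT averaged, and DESeq2's size factors gave 0 for S38D against S38A in mitotic cells. With only the compared groups the count was 6 for the mitotic change in S38A, 0 for S38A against WT and 4 for S38D against S38A in asynchronous cells, 3 for S38D against WT and 4 against S38A in mitotic cells, 1 for S38D against S38A averaged and 4 for the S38D minus S38A interaction. With both WT asynchronous libraries left out, chosen after seeing the data, it was 6 in S38A, 2 in S38D, 4 for S38D against S38A in asynchronous and 2 in mitotic cells, 0 for both mutants against WT averaged, 1 for S38D against S38A averaged and 5 for the interaction.

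The labels share replicate numbers. No sign of pairing by these numbers was seen, though counting error could hide it. With the replicate block the count was 3 for S38A against WT in asynchronous cells, 0 for S38A and 0 for S38D against WT averaged, and 1 for the S38D minus S38A interaction; the other counts stayed within 1.5 times.

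Leaving out 1 library, where a group of 1 is assumed to vary like the others, gave counts of 0 to 5 for the averaged mitotic change, 0 to 6 for WT, 0 to 3 for S38A and 0 to 3 for S38D. In asynchronous cells it gave 0 to 6 for each mutant against WT, and for S38D against S38A 1 to 3. In mitotic cells it gave 0 to 0 for S38D against WT and 0 to 1 against S38A. Averaged over states it gave 0 to 6 (S38A against WT), 0 to 3 (S38D against WT), and 0 to 1 with S38D set against S38A, and for the interactions 0 to 6 (S38A minus WT), 0 to 6 (S38D minus WT) and 0 to 4 (S38D minus S38A). The sign of a called log2 value turned only when a WT asynchronous library was left out. For the mitotic change in WT the ranges were -1.20 to 1.89 (mt-Nd1), -0.63 to 1.87 (mt-Nd2), -1.01 to 0.92 (mt-Co1), -0.97 to 1.98 (mt-Nd4), -0.78 to 1.80 (mt-Nd5) and -0.77 to 1.43 (mt-Cytb). For S38A against WT in asynchronous cells they were -1.85 to 1.28 (mt-Nd1), -1.64 to 0.90 (mt-Nd2), -1.59 to 0.38 (mt-Co1), -1.60 to 1.39 (mt-Nd4), -1.60 to 1.02 (mt-Nd5) and -1.50 to 0.74 (mt-Cytb). For S38D against WT they were -1.42 to 1.71 (mt-Nd1), -1.11 to 0.86 (mt-Co1), -1.09 to 1.90 (mt-Nd4), -0.69 to 1.92 (mt-Nd5) and -0.92 to 1.32 (mt-Cytb). For mt-Nd1 they were -0.27 to 0.43 in the averaged mitotic change and -1.34 to 1.77 in the S38A minus WT interaction. Of 672 log2 values with 1 library left out, 461 kept sign and side of the threshold; of 889 under the other planned settings, 798 did. The cause was not tested. By total reads over the libraries, depth was lowest for mt-Nd4 (1128, with 22 to 149 a library) and mt-Nd6 (1473, with 73 to 201 a library).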
